A study of Mus musculus with 7 samples.

Results

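The genes described here are 43 components of TGF-beta, BMP and activin signalling, taken from 20719 genes measured on mouse gene arrays in sorted adrenal cells. They are a list of named genes, put together with earlier results of these data known, and each was matched by its symbol in the deposited table. All 43 were found, as 12 ligands or ligand subunits, 11 receptors, 8 Smads, 4 Id genes and 8 antagonists or binding proteins. One group of arrays, SF1+, held GFP-positive adrenal cells of Sf1:eGFP mice, in which a BAC fragment of Nr5a1 drives eGFP (4 arrays). The other, Wnt+, held GFP-positive adrenal cells of TCF/Lef:H2B-GFP mice, in which multimerized TCF/LEF sites and a minimal Hspa1b heat-shock promoter drive a histone-GFP fusion (3 arrays). All mice were 6-week-old C57BL/6J males, and each array held RNA of a separate sort from 10 pooled adrenals. The reporter line and the sorted population were the same variable in this design, so their effects cannot be told apart. The comparison asked how adrenal cells sorted on a Wnt reporter differ from those sorted on an SF1 reporter.

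Ligands of this family are dimers that bring together type II and type I receptor kinases, and the type I receptor phosphorylates Smad proteins. Smad2 and Smad3 carry TGF-beta and activin signals, Smad1, Smad5 and Smad9 carry BMP signals, and both sets act in the nucleus with Smad4, while Smad6 and Smad7 inhibit. The Id genes, which encode inhibitors of basic helix-loop-helix factors, are standard BMP targets. In the adrenal cortex the family is known above all from inhibin, since mice that lack Inha develop adrenocortical tumours after gonadectomy, and from the inhibition of steroid synthesis by TGF-beta in cultured cortical cells of several species.

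No component passed the threshold over all genes. With limma, 0 of the 43 had an adjusted p under 0.05, where 0.256% of all genes did, and the lowest adjusted p was 0.0659. Taking an unadjusted p under 0.05, 6 genes had higher values in Wnt+ (14% of 43, against 7.61% of all genes) and 7 with lower values (16.3%, against 7.89%). By role, these 13 were 5 ligands, 5 receptors, 1 Smad, 1 Id gene and 1 binding protein. The median difference, Wnt+ minus SF1+, was -0.01 on the log2 scale over the 43 and 0.02 over all genes. In all, 18 of the differences were above 0 and 25 below, from -1.36 for Tgfb1 to 1.19 for Bmpr1a. Every array of one group lay beyond every array of the other for 5 genes higher in Wnt+ (11.6%, against 7.04% of all genes) and 5 lower (11.6%, against 7.07%).

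Some of these genes lay near the floor of the arrays, where differences are compressed. A gene is called dim here when its mean in both groups was below 3.19, the median of all genes' means. Of the 43, 10 were dim: Tgfb3, Bmp5, Inhba, Bmpr1b, Amhr2, Acvr2b, Smad9, Nog, Grem1 and Chrd. Among the 33 others, 12 had an unadjusted limma p under 0.05 (36.4%), where 25.7% of all genes that were not dim did.

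**Figure D1:**
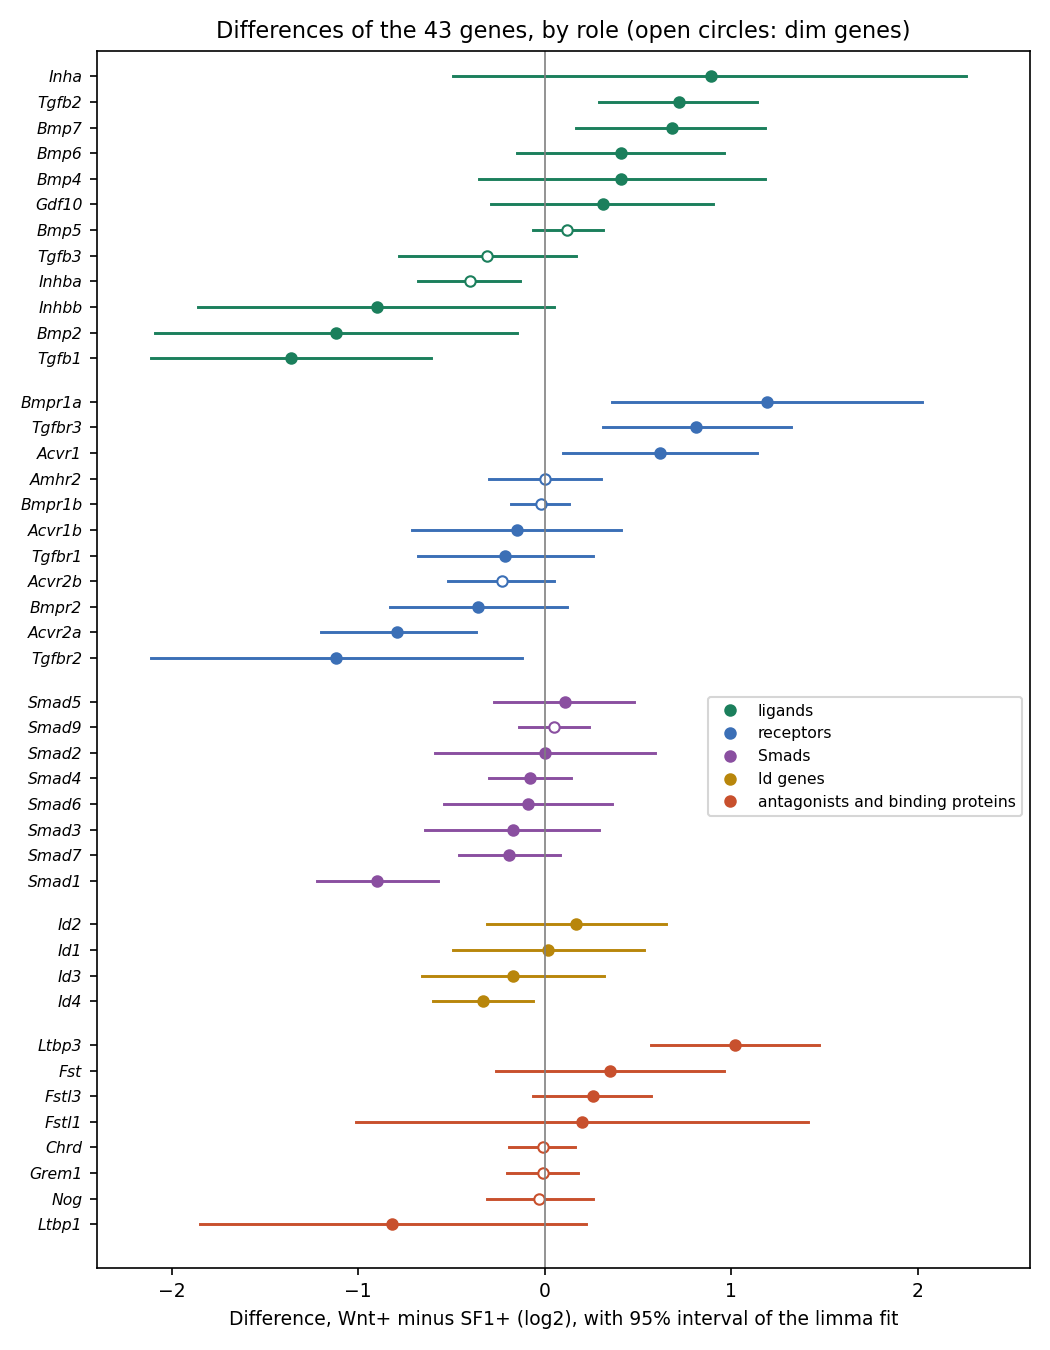
Difference between the groups for each of the 43 genes, in log2 units, Wnt+ less SF1+ (horizontal axis), by role. Circles are differences of 3 against 4 arrays, lines are 95% intervals of the limma fit, and open circles mark the 10 dim genes; the ligands and receptors spread to both sides, from -1.36 for Tgfb1 to 1.19 for Bmpr1a, while most Smads and Id genes lie near 0.

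Markers of the adrenal cortex and of other adrenal cell types were measured in both sorts. All 12 adrenocortical markers (Nr5a1, Cyp11a1, Star and others) were above the dim range, and their mean log2 value was 7.25 to 8.01 in the SF1+ arrays and 8.46 to 9.05 in the Wnt+ arrays. All 14 endothelial markers had a negative difference, with a list mean of 7.92 to 8.42 in SF1+ and of 7.71, 5.53 and 6.88 in Wnt+ replicates 1, 2 and 3. The 12 stromal and capsular markers, 11 of them with a positive difference, averaged 4.18 to 4.93 in SF1+ and 5.47, 4.35 and 5.41 in Wnt+ replicates 1, 2 and 3, and Gli1 and Rspo3 were dim. The 10 chromaffin markers, all with a positive difference, averaged 4.66 to 6.08 in SF1+ and 6.10 to 7.33 in Wnt+. The 10 lymphocyte markers, all with a negative difference and Cd79a dim, averaged 4.29 to 5.72 in SF1+ and 2.87 to 2.91 in Wnt+. The 9 macrophage and myeloid markers, 8 with a negative difference, averaged 5.85 to 7.58 in SF1+ and 5.74 to 6.40 in Wnt+. In such mixed samples, fewer cells of a type and less RNA per cell cannot be told apart.

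Among the ligands, Tgfb1 had the lowest difference and Tgfb2 was on the other side of 0. Tgfb1 encodes the most widely expressed TGF-beta isoform. It was at 6.74, 7.30, 7.62 and 7.23 in SF1+ replicates 1 to 4 and at 6.36, 5.18 and 6.05 in Wnt+ replicates 1 to 3 (log2 values). Every Wnt+ array lay below every SF1+ array, and Wnt+ replicate 2 was the lowest. The difference was -1.36 (SE 0.32, limma adjusted p = 0.127), a level 2.56-fold higher in SF1+. With each array left out in turn it stayed between -1.61 and -1.02. The endothelial list mean had the same order among the Wnt+ arrays but not among the SF1+ arrays. The lymphocyte list mean, at 4.29, 5.19, 5.72 and 5.03 in SF1+ replicates 1 to 4, had the order of Tgfb1 there. The part of either cell type in the Tgfb1 difference was not tested.

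Tgfb2, another isoform, was at 3.44, 3.52, 3.22 and 3.55 in SF1+ and at 4.45, 4.26 and 3.74 in Wnt+. The lowest Wnt+ array was above the highest SF1+ array. The difference was 0.72 (SE 0.18, limma adjusted p = 0.142), and refits that each dropped 1 array gave 0.57 to 0.92. Tgfb3 was dim, at 3.05 ± 0.33 (SD, n = 4) and 2.74 ± 0.24 (SD, n = 3).

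Of the BMP ligands, Bmp2 and Bmp7 had opposite differences. Bmp2, which is also made by endothelial cells, was at 6.89, 7.28, 7.01 and 6.56 in SF1+ and at 6.62, 6.02 and 4.81 in Wnt+. The groups overlapped through Wnt+ replicate 1, and replicate 3 was far below the rest. The difference of -1.12 (SE 0.41, limma adjusted p = 0.259) was -0.61 without Wnt+ replicate 3. In the endothelial list mean replicate 2 was the lowest Wnt+ array, and the part of endothelial RNA in the Bmp2 difference was not tested. Bmp7, a ligand needed for kidney development, was at 3.20, 2.90, 3.12 and 3.73 in SF1+ and at 3.62, 4.06 and 4.05 in Wnt+. Here SF1+ replicate 4 reached into the Wnt+ range. The difference was 0.68 (SE 0.21, limma adjusted p = 0.208). Another transcript cluster of Bmp7, close to the floor, differed by 0.04. Bmp4 and Bmp6 differed by 0.41 each (limma adjusted p = 0.613 and 0.478), and in both cases Wnt+ replicate 1 was the array that stood above the others. Without that array the differences were -0.01 and 0.10, and without Wnt+ replicate 2 they were 0.73 and 0.61. Bmp5 was dim at 2.27 ± 0.07 (SD, n = 4) and 2.40 ± 0.09 (SD, n = 3). Gdf10, a divergent relative of the BMPs, differed by 0.31 (95% interval -0.29 to 0.90), and by 0.05 without Wnt+ replicate 1 and 0.61 without Wnt+ replicate 2.

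Of the activin and inhibin subunits, Inha varied most within the SF1+ group. Inha encodes the alpha subunit, which turns an activin chain into inhibin. It was at 5.34, 3.27, 3.21 and 4.06 in SF1+ and at 4.08, 4.99 and 5.50 in Wnt+. The SF1+ arrays alone spanned nearly the whole range, from replicate 3 to replicate 1. The difference of 0.89 had a 95% interval of -0.49 to 2.26 (limma adjusted p = 0.537) and ran from 0.57 without Wnt+ replicate 3 to 1.34 without SF1+ replicate 1. Inhbb, the beta-B subunit of activin B and inhibin B, was at 3.63, 4.20, 5.15 and 3.46 in SF1+ and at 3.26, 3.45 and 2.92 in Wnt+. All Wnt+ arrays were below all SF1+ arrays by a narrow margin, and SF1+ replicate 3 stood highest. Its difference was -0.90 (SE 0.40, limma adjusted p = 0.35) and -0.56 without that replicate. Inhba, the beta-A subunit, was dim, at 2.90, 3.09, 2.97 and 3.30 in SF1+ and at 2.74, 2.71 and 2.53 in Wnt+. These groups did not overlap, with a difference of -0.40 (SE 0.12, limma adjusted p = 0.176).

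**Figure D2:**
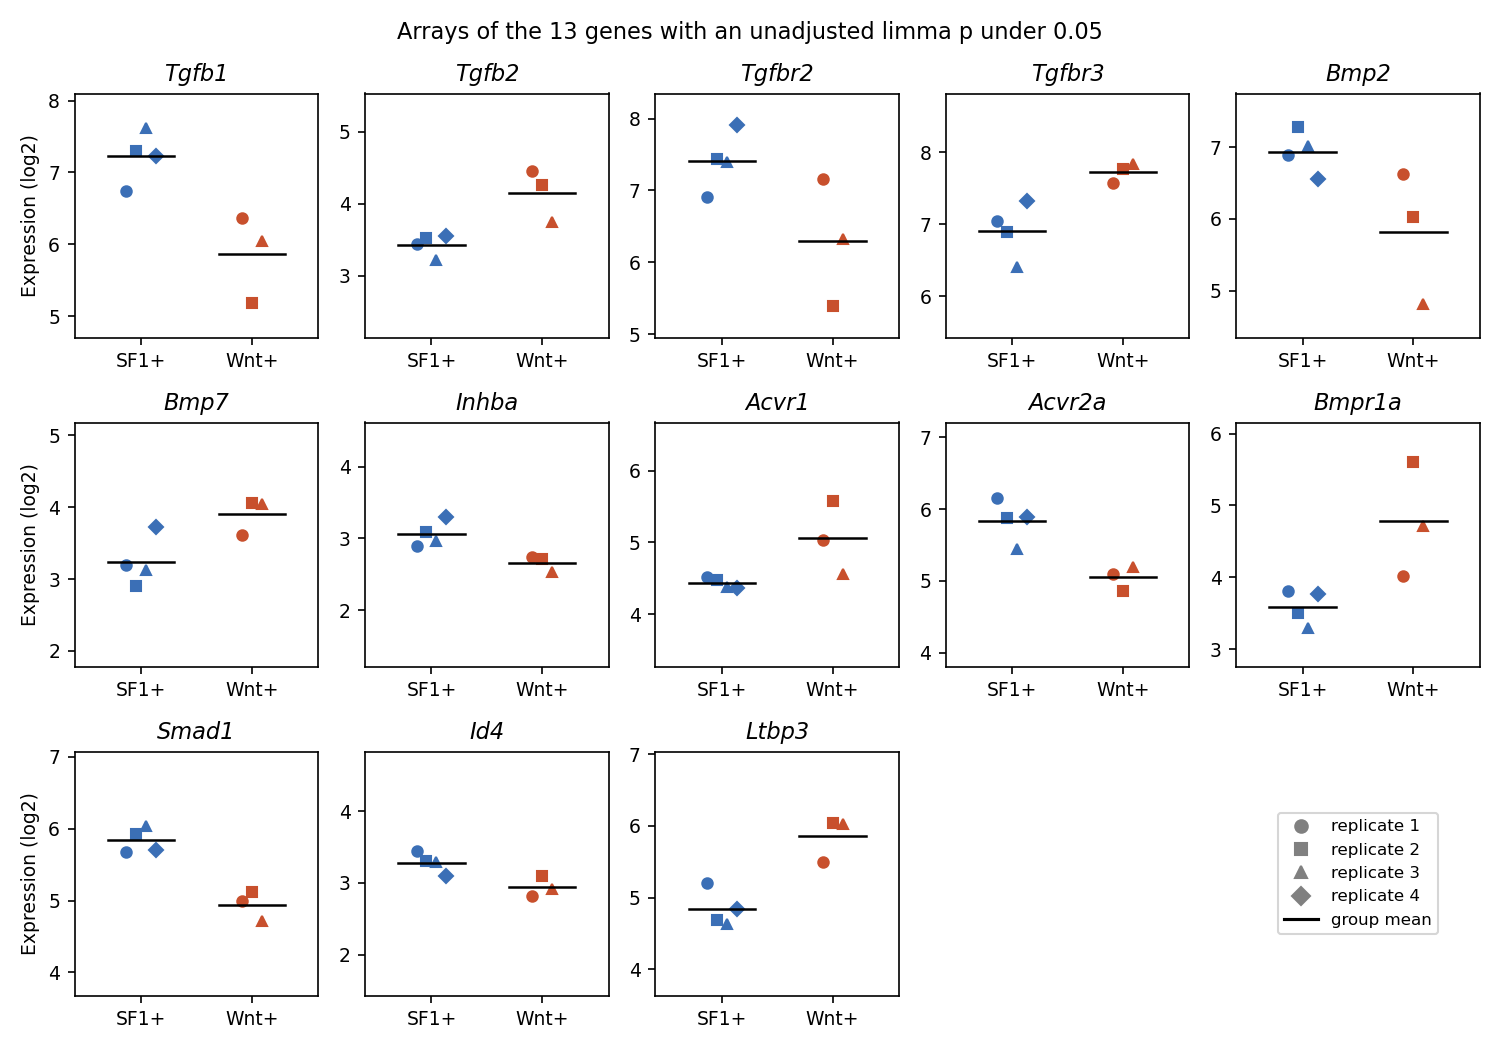
Log2 expression in each array for the 13 genes with an unadjusted limma p under 0.05, with SF1+ in blue (4 arrays), Wnt+ in orange (3 arrays), a symbol for each replicate number and a black line at each group mean. All panels span the same number of log2 units; for 9 of the 13 genes no Wnt+ array falls within the SF1+ range, and Bmp2, Bmp7, Tgfbr2 and Id4 are the exceptions.

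Promoters were searched for the motifs of the factors behind the reporters and of the Smads, as a description of the sequence only. The RefSeq promoters (build GRCm38.p6, 250 bases before to 50 after the start of a transcript) gave 39 windows for 33 of the 43 genes. On either strand, the TCF/LEF motifs CTTTGAT or CTTTGAA were in 1 of the 39, and in 8.65% of all 32851 promoters. The SF1 motifs CAAGGTCA or CAAGGCCA were in 1 of 39 (3.92% of all), the Smad palindrome GTCTAGAC in 1 of 39 (0.213% of all) and the BMP-responsive motif GGCGCC in 12 of 39 (11.9% of all). The member windows were richer in G and C than promoters at large, with medians of 65% and 52.7%. The TCF/LEF match was in the window of Inha, and it began at position -62 from the transcript start used for that window. A stretch of the window before the match reads as an open coding frame. It was therefore not established that this window is the promoter of Inha. The match, CTTTGAA, is shown in capitals (chr1:75507359-75507658, plus strand). Its window is the one of the 39 with either of the TCF/LEF motifs searched.
Inha: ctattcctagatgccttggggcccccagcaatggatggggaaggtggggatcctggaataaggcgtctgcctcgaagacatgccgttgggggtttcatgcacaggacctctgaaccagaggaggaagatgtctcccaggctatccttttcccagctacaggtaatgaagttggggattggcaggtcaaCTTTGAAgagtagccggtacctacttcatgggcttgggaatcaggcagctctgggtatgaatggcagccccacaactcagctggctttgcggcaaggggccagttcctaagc

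Of the 11 receptors, 5 had an unadjusted limma p under 0.05. For the type II receptors Tgfbr2 and Acvr2a the Wnt+ means were below those of SF1+, while for the type I receptors Bmpr1a and Acvr1 and for the co-receptor Tgfbr3 they were above. Bmpr1a encodes the type I receptor ALK3, through which BMP2 and BMP4 signal. It was at 3.81, 3.50, 3.30 and 3.76 in SF1+ and at 4.02, 5.61 and 4.72 in Wnt+. No Wnt+ array reached down to the SF1+ arrays, though replicate 1 came close and replicate 2 was far above. The difference of 1.19 (SE 0.35, limma adjusted p = 0.184) was a 2.28-fold higher level in Wnt+, and it was 0.78 without Wnt+ replicate 2. That replicate also had the highest adrenocortical list mean, and the part of this in the difference was not tested. The Bmpr1a promoter held one BMP-responsive match, in capitals, at position -198 from the start (chr14:34502497-34502796, minus strand).
Bmpr1a: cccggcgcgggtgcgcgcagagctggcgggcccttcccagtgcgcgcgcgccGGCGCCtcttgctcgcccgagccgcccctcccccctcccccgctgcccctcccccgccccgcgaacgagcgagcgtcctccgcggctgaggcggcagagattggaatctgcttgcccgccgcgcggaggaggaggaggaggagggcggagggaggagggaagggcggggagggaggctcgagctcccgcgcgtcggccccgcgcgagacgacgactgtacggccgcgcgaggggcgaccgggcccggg

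Tgfbr3, or betaglycan, is the co-receptor that presents TGF-beta2 to its receptors and makes inhibin an effective activin antagonist. It was at 7.04, 6.89, 6.40 and 7.33 in SF1+ and at 7.57, 7.77 and 7.84 in Wnt+. The 3 Wnt+ arrays lay close together and above all SF1+ arrays. The difference was 0.81 (SE 0.21, limma adjusted p = 0.154), and dropping any 1 array kept it within 0.64 to 0.95. Acvr1, the type I receptor ALK2, was at 4.52, 4.48, 4.38 and 4.36 in SF1+ and at 5.03, 5.58 and 4.56 in Wnt+. Wnt+ replicate 3 was just above the highest SF1+ array. Its difference was 0.62 (SE 0.22, limma adjusted p = 0.245) and 0.36 without Wnt+ replicate 2.

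Acvr2a, a type II receptor for activins and several BMPs, was at 6.15, 5.88, 5.44 and 5.89 in SF1+ and at 5.10, 4.86 and 5.19 in Wnt+. The groups did not overlap, with SF1+ replicate 3 nearest to Wnt+. The difference was -0.79 (SE 0.18, limma adjusted p = 0.122), and with any array left out it was between -0.92 and -0.69. Tgfbr2, the type II receptor for TGF-beta, was at 6.91, 7.44, 7.39 and 7.91 in SF1+ and at 7.16, 5.39 and 6.33 in Wnt+. Wnt+ replicate 1 lay within the SF1+ range and replicate 2 far below it. The order among the Wnt+ arrays was that of Tgfb1 and of the endothelial list mean. Neither match held among the SF1+ arrays. The difference of -1.12 (SE 0.42, limma adjusted p = 0.27) was -0.67 without Wnt+ replicate 2. The part of endothelial RNA in it was not tested.

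The other receptors had an unadjusted limma p above 0.05. Bmpr2, the type II receptor dedicated to BMPs, was at 7.28, 7.75, 7.56 and 7.68 in SF1+ and at 7.65, 7.06 and 6.93 in Wnt+. These ranges overlapped, with a difference of -0.36 (95% interval -0.83 to 0.12). It ran from -0.57 without Wnt+ replicate 1 to -0.21 without Wnt+ replicate 3. Tgfbr1, the type I partner of Tgfbr2, differed by -0.21 (95% interval -0.68 to 0.26). Acvr1b, the activin type I receptor ALK4, differed by -0.15 (95% interval -0.71 to 0.41). Acvr2b and Bmpr1b were dim, with differences of -0.23 and -0.02. Amhr2, the receptor of anti-Müllerian hormone and a gonadal gene, was dim as well, at 2.77 ± 0.18 (SD, n = 4) and 2.77 ± 0.15 (SD, n = 3). Its promoter held the one SF1 match among the 33 members with a promoter window, in capitals in the 40 bases around it (chr15:102445119-102445158, plus strand).
Amhr2: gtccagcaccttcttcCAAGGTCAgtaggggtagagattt

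Of the Smads, Smad1 alone had an unadjusted p under 0.05. This BMP-responsive Smad was at 5.68, 5.93, 6.04 and 5.71 in SF1+ and at 5.00, 5.12 and 4.71 in Wnt+. The highest Wnt+ array was well below the lowest SF1+ array. Its difference was -0.90 (SE 0.14, limma adjusted p = 0.0659), a level 1.87-fold higher in SF1+, and it stayed between -0.99 and -0.78 with any array left out. The adjusted p was 0.0483 when only genes above the median level were tested and 0.0461 after a further quantile normalisation. Over its 16 alternatives it ran from 0.0461 to 0.293. Among the Wnt+ arrays Smad1 was highest in replicate 2, where the endothelial and lymphocyte list means were lowest, at 5.53 and 2.87. Among the SF1+ arrays Smad1 had the order of the lymphocyte list mean, at 4.29, 5.19, 5.72 and 5.03 in replicates 1 to 4. The part of either cell type in the Smad1 difference was not tested.

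Smad5, which has the same role as Smad1, was at 6.31, 6.20, 6.06 and 6.61 in SF1+ and at 6.15, 6.52 and 6.53 in Wnt+. These values overlapped, and the difference of 0.11 had a 95% interval of -0.27 to 0.48. Smad2, Smad3 and Smad4 differed by 0.00, -0.17 and -0.08, with 95% intervals of -0.59 to 0.59, -0.64 to 0.29 and -0.30 to 0.14. The inhibitory Smad6 and Smad7 differed by -0.09 and -0.19, and Smad9 was dim, at 2.99 ± 0.08 (SD, n = 4) and 3.05 ± 0.07 (SD, n = 3). The promoters of Smad1 and Smad6 are shown together because Smad1 had the lowest p of all members and none of the motifs in its window, while the window of Smad6, of which 40 bases are given, held the Smad palindrome in capitals. Their positions are chr8:79399379-79399678, minus strand, and chr9:64022040-64022079, minus strand.
Smad1: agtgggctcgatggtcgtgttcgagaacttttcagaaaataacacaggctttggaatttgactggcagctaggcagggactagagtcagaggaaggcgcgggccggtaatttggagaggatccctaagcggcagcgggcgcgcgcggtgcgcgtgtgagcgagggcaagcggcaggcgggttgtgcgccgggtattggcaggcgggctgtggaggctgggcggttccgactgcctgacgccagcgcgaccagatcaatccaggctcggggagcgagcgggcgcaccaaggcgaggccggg
Smad6: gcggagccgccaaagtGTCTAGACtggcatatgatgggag

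Of the Id genes, Id4 alone had an unadjusted limma p under 0.05. Id2 was at 8.03, 7.98, 7.65 and 8.24 in SF1+ and at 7.74, 8.26 and 8.43 in Wnt+, with overlap throughout. Id1, Id2 and Id3 differed by 0.02, 0.17 and -0.17, with 95% intervals of -0.49 to 0.53, -0.31 to 0.65 and -0.66 to 0.32. Id4 was at 3.44, 3.30, 3.29 and 3.09 in SF1+ and at 2.82, 3.10 and 2.92 in Wnt+. Wnt+ replicate 2 touched the SF1+ range at these low values, and the difference was -0.33 (SE 0.11, limma adjusted p = 0.23).

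Among the antagonists and binding proteins, the latent TGF-beta binding proteins Ltbp3 and Ltbp1 were on opposite sides of 0. Both belong to a family that holds latent TGF-beta in the matrix. Ltbp3 was at 5.20, 4.69, 4.63 and 4.84 in SF1+ and at 5.50, 6.04 and 6.03 in Wnt+. The groups were separate, with SF1+ replicate 1 nearest to Wnt+. Within each group the arrays had the order of the adrenocortical list mean, whose part in the Ltbp3 difference was not tested. The difference was 1.02 (SE 0.19, limma adjusted p = 0.0938), a 2.02-fold higher level in Wnt+, and it was 0.93 to 1.19 when any 1 array was dropped. Without Wnt+ replicate 1 its adjusted p was 0.0453; its alternatives spanned 0.0453 to 0.348. Ltbp1 was at 4.57, 5.56, 5.63 and 5.49 in SF1+ and at 5.50, 3.98 and 4.01 in Wnt+. SF1+ replicate 1 was low and Wnt+ replicate 1 high, each within reach of the other group, and the difference was -0.82 (SE 0.44, limma adjusted p = 0.443). With 1 array left out it ran from -1.31 without Wnt+ replicate 1 to -0.56 without Wnt+ replicate 2. The Ltbp3 window, shown as that of the member with the next lowest p after Smad1, held none of the motifs (chr19:5740650-5740949, plus strand).
Ltbp3: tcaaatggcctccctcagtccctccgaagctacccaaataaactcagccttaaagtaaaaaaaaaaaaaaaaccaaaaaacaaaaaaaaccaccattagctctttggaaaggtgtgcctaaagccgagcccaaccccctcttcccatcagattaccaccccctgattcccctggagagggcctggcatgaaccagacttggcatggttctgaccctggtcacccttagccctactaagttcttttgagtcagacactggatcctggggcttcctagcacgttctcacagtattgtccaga

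Fstl1, a secreted follistatin-like protein of mesenchymal cells, was at 5.47, 6.25, 6.20 and 5.69 in SF1+ and at 6.73, 4.78 and 6.80 in Wnt+. Replicate 2 stood alone below all other arrays, and the other Wnt+ arrays stood above all SF1+ arrays. The difference was 0.20 (95% interval -1.01 to 1.41), and it was 0.87 without Wnt+ replicate 2 (limma adjusted p = 0.258, the lowest of alternatives that reached 0.978). The stromal list mean was also lowest among the Wnt+ arrays in replicate 2, at 4.35 against 5.47 and 5.41, and its part was not tested. Fst, the activin-binding follistatin, differed by 0.35 (95% interval -0.26 to 0.96) and Fstl3 by 0.26 (95% interval -0.06 to 0.57). With 1 array left out Fst ran from 0.12 (Wnt+ replicate 1) to 0.59 (Wnt+ replicate 2), and Fstl3 from 0.13 (Wnt+ replicate 1) to 0.38 (Wnt+ replicate 3). The BMP antagonists Nog, Grem1 and Chrd were dim in both groups, with means of 2.34 to 2.77 and differences of -0.03, -0.01 and -0.01.

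**Figure D3:**
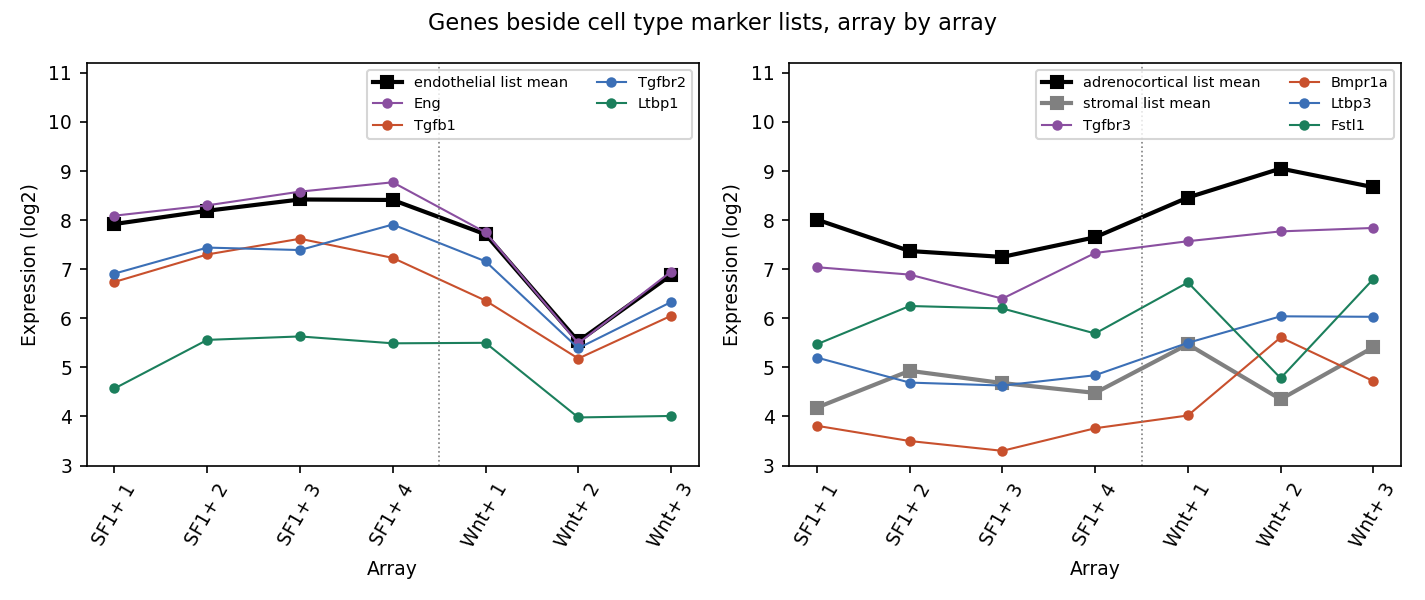
Log2 expression (vertical axes) across the 7 arrays of selected genes beside the mean of marker lists (thick lines, squares), with endothelial markers on the left and adrenocortical and stromal markers on the right; the dotted line separates SF1+ from Wnt+. Tgfb1, Tgfbr2 and Eng have their lowest value in Wnt+ replicate 2, where the endothelial mean is 5.53. Eng is itself part of that mean. Bmp2 and Smad1, which are not drawn, have their lowest value in Wnt+ replicate 3. Fstl1 dips with the stromal mean in Wnt+ replicate 2, and levels of different genes are not compared.

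A wider list of 66 other genes of the pathway was examined in the same fit. None had an adjusted p under 0.05, and 5 had higher values in Wnt+ at an unadjusted limma p under 0.05 (7.58%, against 7.61% of all genes) and 2 lower values (3.03%, against 7.89%). These shares were at or below those of all genes, so the values that follow describe single genes. Of these 66 genes 36 were dim. Twsg1, an extracellular regulator of BMPs and chordin, had a mean of 5.39 ± 0.20 (SD, n = 4) in the SF1+ arrays and 6.08 ± 0.25 (SD, n = 3) in the Wnt+ arrays. Its difference was 0.69 (SE 0.16, adjusted p = 0.126). The neogenin gene Neo1, whose product binds repulsive guidance molecules that act as BMP co-receptors, differed by 0.78 (SE 0.22, adjusted p = 0.175). Itgav, an integrin subunit that activates latent TGF-beta, differed by 0.67, Ppm1a, a phosphatase that acts on Smads, by 0.53, and the procollagen proteinase gene Bmp1, which is no BMP ligand, by 0.44. On the other side were endoglin, Eng, an endothelial co-receptor that is also in the endothelial list, at -1.70 (SE 0.49, adjusted p = 0.178), and the ubiquitin ligase gene Smurf2 at -0.68 (SE 0.23, adjusted p = 0.223). Eng was at 7.75, 5.49 and 6.95 in Wnt+ replicates 1 to 3 and at 8.09 to 8.77 in SF1+, and its difference was -1.08 without Wnt+ replicate 2. Without Wnt+ replicate 1, Smurf2 was at -0.98 with an adjusted p of 0.0334; its alternatives spanned 0.0334 to 0.449.

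The authors' deposited table also gives fold changes for another experiment, in which mouse adrenocortical tumor cell lines were treated with Bio or Vehicle. BIO is the usual name of an inhibitor of the kinase GSK3 that activates beta-catenin, and the header does not spell it out. At an unadjusted p under 0.05 in the authors' deposited table, 23 of the 43 genes had lower values under Bio (53.5%, against 17.3% of all genes) and 4 had higher values (9.3%, against 18.2%). With the p-values of the authors' deposited table adjusted over all 20719 genes, an alternative added after seeing the data, 15 of the 43 genes fell under Bio (34.9%, against 9.06% of all genes) and 1 rose (2.33%, against 9.82%). Among the 33 genes that were not dim in the sorted cells 14 fell (42.4%), against 14% of all such genes. The median fold over the 43 was 0.889 in the authors' deposited table, and 0.991 over all genes. No error is given for these folds, and levels in the cell lines were not used here.

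The lowest folds under Bio were those of the secreted proteins Ltbp1, Bmp4 and Grem1. In the authors' deposited table the fold was 0.252 for Ltbp1 (p adjusted here = 0.0155), 0.283 for Bmp4 (0.00409), 0.342 for the BMP antagonist Grem1 (0.0162) and 0.623 for Fstl1 (0.0112). Bmp4 and Grem1 had differed by 0.41 and -0.01 in the sorted cells, where Grem1 was dim. Of the 4 Id genes, 3 fell by the authors' deposited table. The authors' deposited table has folds of 0.596 for Id1 (p adjusted here = 0.0122), 0.79 for Id2 (0.0155) and 0.622 for Id3 (0.0162), and 1.06 for Id4 (0.367). Of the Smads, those of Smad3, Smad6 and Smad2 fell, to 0.64, 0.7 and 0.788 (p adjusted here = 0.0183, 0.018 and 0.018 in the authors' deposited table). Smad1 was at 0.696 in the authors' deposited table, with a p adjusted here of 0.0645.

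At the adjusted threshold Bmp2 was the one member that rose, with a fold of 1.51 (p adjusted here = 0.0492) in the authors' deposited table, and its difference in the sorted cells was -1.12. The other falls that passed were Tgfb1 (0.774), Tgfbr1 (0.836), Bmpr1a (0.83), Bmp7 (0.889) and Ltbp3 (0.903), by the authors' deposited table. Inha, Tgfb2 and Smad9, with folds of 1.38, 1.27 and 1.28 in the authors' deposited table, were higher at the authors' unadjusted p and did not pass after adjustment (0.114, 0.0534 and 0.0755). The 13 members with an unadjusted limma p under 0.05 in the sorted cells had the same sign in both comparisons in 5 cases and opposite signs in 8. Of all 3211 genes with such a p, 58.1% had the same sign. Tgfb1 and Smad1 were below 0 in both, Tgfb2 was above 0 in both, and Bmpr1a, Ltbp3, Tgfbr3, Acvr1 and Bmp7 were above 0 in the sorted Wnt+ cells and below 0 under Bio.

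**Figure D4:**
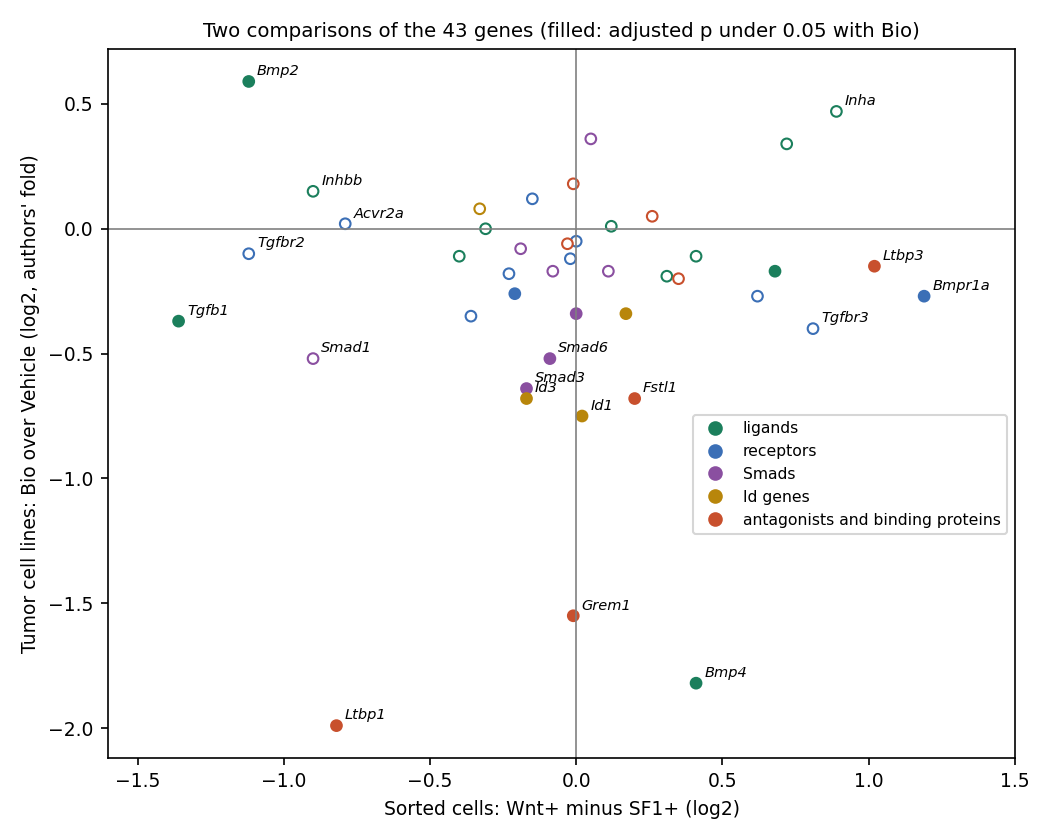
Difference between sorted cells (Wnt+ minus SF1+, log2, horizontal axis) against the log2 of the authors' fold for Bio over Vehicle in tumor cell lines (vertical axis), 1 point for each of the 43 genes, coloured by role and filled where the p adjusted here for Bio is under 0.05. Most filled points lie below 0 on the vertical axis at any horizontal position, with Ltbp1, Bmp4 and Grem1 lowest and Bmp2 the one filled point above 0.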

How the data were processed

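RNA of 7 samples was hybridised to Affymetrix mouse gene array strips, 4 SF1+ and 3 Wnt+, where the labels state 4 sorts per genotype. The authors deposited log2 values per transcript cluster, made with RMA on perfect-match probes per the file headers, and with oligo per the submitters' processing notes; the sources used here name no version. RMA equalises the arrays' distributions, so changes in total RNA cannot be seen. The authors' deposited table also holds unadjusted p-values for both experiments and a linear fold for Bio over Vehicle (4 pairs, per the file headers). The series matrix held the same values within 5e-09. In a sheet for drawing, 7 per-sample columns were not used.

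Of 28944 clusters, 23812 had a symbol, and where a gene had several clusters the one of highest mean was kept, leaving 20719 genes. The group difference of each gene came from limma 3.58.1 under R 4.3.3 (moderated linear model, 1 group coefficient, prior degrees of freedom 1.98), two-sided, adjusted by Benjamini-Hochberg over all genes at 0.05, with no filter. The number of arrays limits the precision. The authors' Bio p-values were also adjusted the same way, an alternative added after seeing the data. Genes were given array by array where the unadjusted p was under 0.05 or the groups did not overlap, and for the gene with the highest mean in each role. Inha, Ltbp1 and Eng fall outside this rule and were chosen after their values were seen. Other pathway genes were named at an unadjusted p under 0.05. The members, lists and tests were chosen with earlier results of these data known. The labels name no batch and call the sorts independent. Deviations from group means correlated at -0.22, 0.03 and -0.21 between arrays of the same replicate number, and at -0.20 to 0.30 between the other arrays. These few values show no pairing by number and cannot exclude one. The closing section lists the alternatives. Python 3.11.15 and matplotlib 3.10.9 made the plots.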

Additional observations from a re-analysis of the deposited data

Results flagged for a closer look

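In 2 of the 43 genes a single SF1+ array stood apart from the other 3 by Dixon's criterion, which chance meets in about 1 of 20 groups. Acvr1b was at 3.77 in SF1+ replicate 4 and at 3.02 to 3.07 in the others. Ltbp1 was at 4.57 in SF1+ replicate 1 and at 5.49 to 5.63 in the others.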

How the results depend on the processing

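The alternatives were a replicate block, each array left out in turn, genes above the median level only, median-centred arrays, trended moderation, a further quantile normalisation, the mean over clusters, another cluster, array quality weights, the series matrix values, and the authors' p-values after adjustment. The 13 members with an unadjusted p under 0.05 kept their sign in all 207 alternative values. Their differences were unchanged with the series matrix values, genes above the median level, trended moderation and the authors' p-values. Signs could not turn in those alternatives, and with the mean over clusters only the difference of Bmp7 moved. The adjusted threshold was passed in 3 of the 207 (Smad1 in 2, Ltbp3 in 1). The number of members with an unadjusted p under 0.05 was 11 to 16 with an array left out, the most without Wnt+ replicate 2. Of the 13, 5 (Tgfbr2, Bmp2, Bmp7, Acvr1 and Id4) had a p above 0.05 in at least 1 such refit. Of the others, 12 (Tgfb3, Bmp4, Bmp6, Gdf10, Inha, Inhbb, Bmpr2, Smad7, Fst, Fstl1, Fstl3 and Ltbp1) had a p under 0.05 in at least 1. The number of genes past the adjusted threshold, 53 with limma, moved far more. It was 0 with the replicate block (limma) and 0 with the authors' p-values, 221 with genes above the median level, 27 after median-centring, 33 with array weights, 146 with trended moderation, and 1 to 312 with an array left out (SF1+ replicate 2 or 3 left out gave 1, SF1+ replicate 4 gave 3, Wnt+ replicate 3 gave 2, Wnt+ replicate 2 gave 8 and Wnt+ replicate 1 gave 312). Without adjustment, 3211 genes had a p under 0.05 in the limma fit, 2468 with the block and 2684 by the authors' p-values. Under Bio, adjusting the authors' p-values took the members lower from 23 to 15 and those higher from 4 to 1.

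Signs turned for 11 members, whose differences over all arrays ran up to 0.41 in size (Bmp4). With the replicate block Acvr1b was 0.03, Smad2 0.10, and Nog and Grem1 0.00. Smad2 was 0.01 after median-centring and after quantile normalisation, and Amhr2 was 0.01, 0.00 and, with array weights, 0.02. With arrays left out, Bmp4 ranged from -0.01 to 0.73, Acvr1b from -0.34 to 0.03, Amhr2 from -0.08 to 0.07, Smad2 from -0.27 to 0.26, Smad4 from -0.15 to 0.01, Smad6 from -0.31 to 0.03, Id1 from -0.10 to 0.21, Fstl1 from -0.15 to 0.87, Nog from -0.16 to 0.06, Grem1 from -0.05 to 0.03 and Chrd from -0.04 to 0.02. The cause was not tested.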
